A study of Drosophila melanogaster with 32 samples.

Results

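The DNA replication licensing genes of Drosophila melanogaster were followed across mated females of 8 laboratory populations. Of the 10 genes considered (Orc1, Cdc6, dup, Mcm2, Mcm3, dpa, Mcm5, Mcm6, Mcm7 and PCNA), 9 had a probe set assigned to that gene alone in the platform annotation, 1 probe set each, among 13647 single-gene probe sets. Mcm7 had none and is named only. The 9 genes were taken by gene symbol, from a list drawn up with earlier results of these data known.

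Licensing prepares origins of replication before S phase. The origin recognition complex, of which Orc1 is the largest subunit, marks origins, and Cdc6 and the Cdt1 protein encoded by dup (double parked) load the ring-shaped MCM helicase there. The ring is built from Mcm2, Mcm3, the Mcm4 protein encoded by dpa (disc proliferation abnormal), Mcm5, Mcm6 and Mcm7, and PCNA is the sliding clamp that holds DNA polymerases on the template once forks move. In the ovary of an adult fly, germline cells divide, nurse cells and follicle cells replicate their genomes without dividing, follicle cells amplify the eggshell gene clusters, and mRNAs of replication proteins are loaded into eggs for the rapid cycles of the early embryo.

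The populations were founded from the LHM base stock and kept for 46 generations either in monogamy, where each female mated with 1 male per generation, or under the standard promiscuous protocol with multiple mating. Females were then mated within their population or to males of the other regime from the population with the same number, and total RNA was taken from whole flies collected 6 h after mating. The 4 groups are written as female regime and male regime: M.M (monogamous females and monogamous males of 1 population), M.P (monogamous females, promiscuous males), P.M (promiscuous females, monogamous males) and P.P (promiscuous females and promiscuous males of 1 population). All groups shared the LHM ancestry, and the labels name no mutation or transgene. Each group held 4 crosses, 1 for each female population, named here Mono1 to Mono4 and Prom1 to Prom4. Every cross had 2 arrays, 1 in each of 2 batches, giving 32 arrays with 8 per group. Batch and replicate array therefore cannot be told apart, and the monogamous and the promiscuous female population of each number were mated to the same 2 male populations.

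Values are RMA log2 levels of whole-fly RNA, so an increase of 1 is a doubling. The array medians lay between 5.41 and 5.50, and no pair of arrays held identical values. Arrays give no read depth, and the number of populations limits the precision. Levels of different probe sets are not comparable with each other, since probes differ in affinity. In whole-fly RNA, fewer cells of a type and less RNA per cell cannot be told apart. The label of a female fly was set against marker lists, whose levels are given as a description and not compared with each other. In a table running from 2.27 to 14.80, the mean over the arrays was 9.79 to 10.06 for the 18 probe sets of the female germline list, 3.28 to 3.51 for 6 male accessory gland probe sets and 3.88 to 4.06 for 10 testis probe sets. Single probe sets averaged 5.03 to 12.62 in the germline list and 2.77 to 4.67 in the accessory gland list. In the testis list they averaged 2.72 to 7.08, the highest being a probe set of bol.

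All 9 licensing genes had their lowest group mean in P.M, and 8 of them had their highest in P.P. The exception was dup, which was highest in M.P. The share of all probe sets with this order of groups was not computed. The order did not hold in batch 2 alone. There M.M lay under P.M for Mcm3, Mcm5 and PCNA, and M.P lay above P.P for dpa, Cdc6, Orc1 and dup. The distance between the lowest and the highest group mean was small, from 0.04 for PCNA to 0.15 for Cdc6. The standard deviations over the 4 crosses of a group were of similar size, from 0.02 to 0.12, and for each of the 9 genes the arrays of all 6 pairs of groups overlapped.

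Among the loading factors, the 8 arrays of Orc1 had a lowest, median and highest level of 10.01, 10.15 and 10.40 in M.M, 9.95, 10.15 and 10.42 in M.P, 9.82, 10.10 and 10.35 in P.M, and 10.11, 10.16 and 10.33 in P.P. For Cdc6 they were 9.45, 9.65 and 9.86 in M.M, 9.46, 9.73 and 9.85 in M.P, 9.39, 9.55 and 9.79 in P.M, and 9.64, 9.72 and 9.82 in P.P. P.P was the narrowest group for both genes, and its lowest arrays lay above the lowest arrays of each other group. For dup, the group means over 4 crosses were 10.84 ± 0.02 (SD, n = 4) in M.M, 10.85 ± 0.07 in M.P, 10.76 ± 0.06 in P.M and 10.83 ± 0.04 in P.P.

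Among the helicase subunits, Mcm2 averaged 10.31 ± 0.07 (SD, n = 4 crosses) in M.M, 10.26 ± 0.06 in M.P, 10.21 ± 0.12 in P.M and 10.34 ± 0.08 in P.P. Mcm5 averaged 10.17 ± 0.12, 10.15 ± 0.10, 10.12 ± 0.04 and 10.26 ± 0.06 in the same order of groups. The means of dpa were 9.71 ± 0.04, 9.72 ± 0.07, 9.65 ± 0.07 and 9.76 ± 0.02. Mcm3 and Mcm6 had the order of Mcm2, with P.M lowest, then M.P, M.M and P.P, and means of 9.84 to 9.94 for Mcm3 and 10.47 to 10.56 for Mcm6. PCNA varied least, from 11.81 ± 0.05 in P.M to 11.86 ± 0.04 in P.P.

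**Figure D1:**
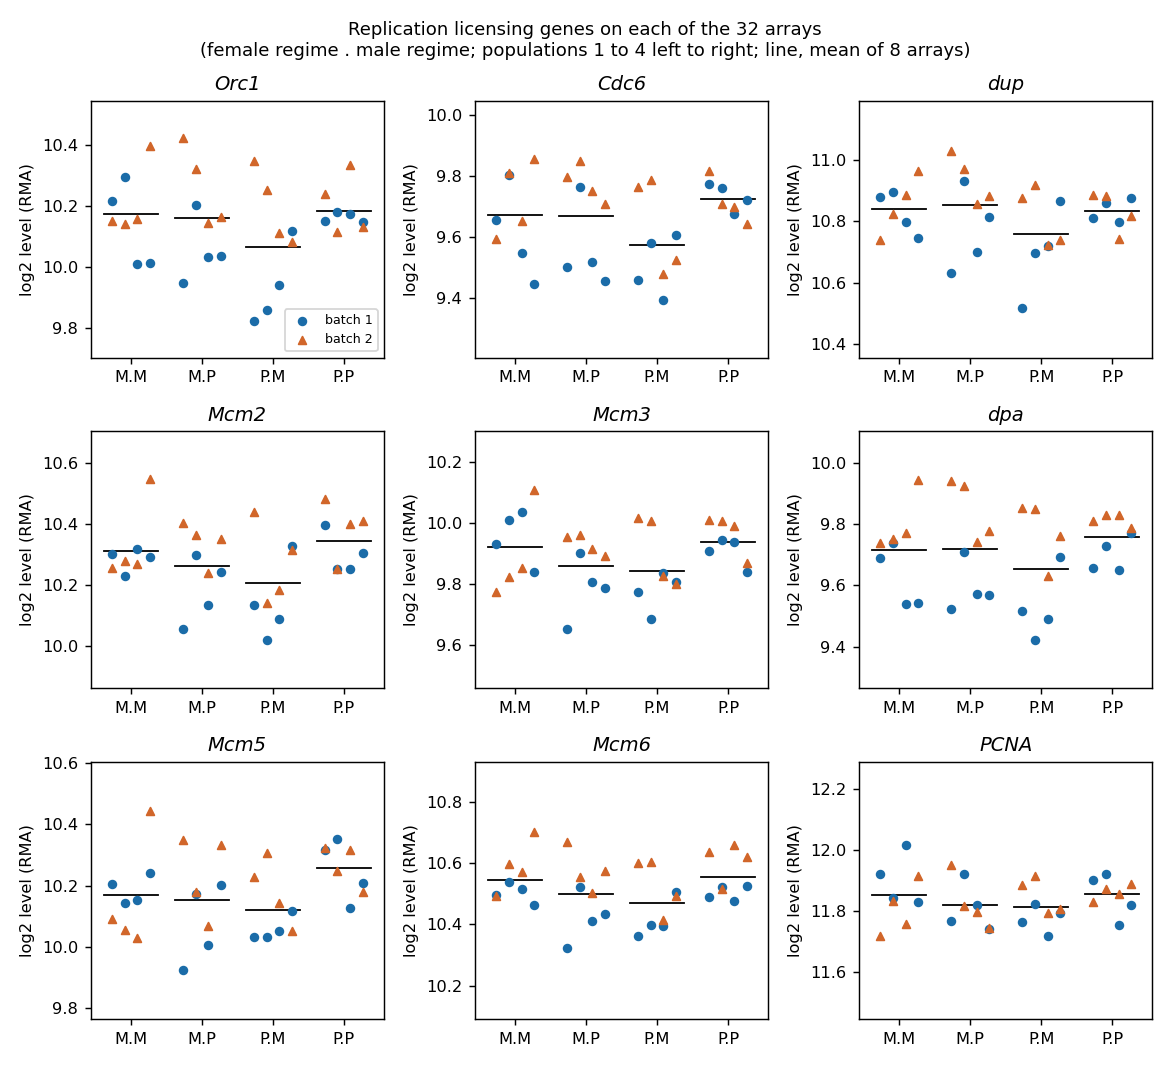
Level of each of the 9 licensing genes (vertical axis, RMA log2) on each of the 32 arrays, by group of female and male regime (horizontal axis), with populations 1 to 4 from left to right in each group. Circles are batch 1, triangles are batch 2, and lines are means of 8 arrays. Every group overlaps every other, the line of P.M is the lowest in all 9 panels, and for dpa and Orc1 many triangles lie above the circles.

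The first question was whether females that evolved under the regimes differed, whichever male they had mated with. The 9 genes did not separate the regimes. The mean of 4 promiscuous minus 4 monogamous populations ran from −0.05 for dup to 0.03 for Mcm5, with a median of −0.01, and 2 of 9 values were above 0, as were 52.9% of all probe sets. For dup, the populations Mono1 to Mono4 had levels of 10.82, 10.91, 10.81 and 10.85, and Prom1 to Prom4 had 10.77, 10.84, 10.75 and 10.83. For Orc1 the monogamous levels were 10.18, 10.24, 10.09 and 10.15, and the promiscuous ones 10.14, 10.10, 10.14 and 10.12. The regimes overlapped for both genes, and no gene of the 9 had every promiscuous population above or below every monogamous one, which held for 2.48% and 1.6% of all tested probe sets. With limma, 0 of 9 passed an adjusted p of 0.05, as did 0% of the 18769 probe sets tested, and 0 of 9 had an unadjusted p under 0.05, against 7.11% of all. The adjusted limma p of the 9 ran from 0.812 for dup to 0.998 for Mcm3. The 95% intervals bounded the regime difference of PCNA between −0.06 and 0.06 and that of Cdc6 between −0.14 and 0.10.

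The second question was how the regime of the male bore on the female after mating. The response of a female population was its level after mating with promiscuous-line males less its level after mating with monogamous-line males, each averaged over the 2 batches. In promiscuous females, the response of all 9 licensing genes lay above 0 in each of the 4 populations, giving 36 of 36 values between 0.02 and 0.25. Over all probe sets, 47.9% had a mean response above 0. No gene passed the adjusted test. The mean responses correspond to between 1.03-fold for PCNA and 1.11-fold for Cdc6.

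Among the loading factors, Cdc6, an ATPase that closes the helicase around DNA together with the origin complex, had responses of 0.18, 0.05, 0.25 and 0.12 in Prom1 to Prom4, with a mean of 0.15 (SE 0.04, 95% interval 0.07 to 0.23). Orc1, the ATPase subunit of the origin complex, had 0.11, 0.09, 0.23 and 0.04, with a mean of 0.12 (SE 0.04). Prom3 had the highest response of both genes, and the lowest was in Prom2 for Cdc6 and in Prom4 for Orc1. The helicase loader dup had 0.15, 0.06, 0.05 and 0.04, with a mean of 0.08 (SE 0.03), where Prom1 stood highest.

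Among the subunits of the helicase ring, Mcm5 had responses of 0.19, 0.13, 0.12 and 0.11 in Prom1 to Prom4, with a mean of 0.14 (SE 0.03, 95% interval 0.07 to 0.21). Mcm2 had 0.15, 0.17, 0.19 and 0.03, with a mean of 0.14 (SE 0.04). The 4 populations were alike for Mcm5, while for Mcm2 Prom4 lay well under the other three. The helicase subunit dpa had 0.05, 0.14, 0.18 and 0.05, with a mean of 0.11. Mcm3 had 0.06, 0.13, 0.13 and 0.05 and Mcm6 had 0.08, 0.02, 0.16 and 0.07, with means of 0.09 and 0.08. No 1 population was the highest for all subunits, but Prom3 was the highest for Mcm2, Mcm3, dpa and Mcm6. PCNA had the smallest mean, 0.04, with 0.04, 0.03, 0.05 and 0.05, and its 95% interval of −0.02 to 0.10 included 0.

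In limma's test of this response, 0 of 9 genes passed an adjusted p of 0.05, against 1 of 18769 probe sets tested, or 0.00533%. The adjusted p of the 9 ran from 0.266 for Mcm5 and 0.27 for Cdc6 to 0.625 for PCNA. At an unadjusted p under 0.05 there were 8 of 9, all but PCNA and all above 0, against 10.2% of all probe sets in either direction and 5.79% above 0. Being above 0 in 4 of 4 populations held for 9 of 9 genes and for 8.88% of all probe sets. The median response was 0.11 for the 9 genes and 0.00 for all probe sets. The 9 genes vary together from array to array, as described further on, so their agreement in direction does not count as 9 separate observations. With any 1 population left out, the median response of the 9 genes was 0.08 to 0.12. The direction could not change in these runs, since each gene was above 0 in 4 of 4 populations.

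Markers of the egg-producing germline also lay mostly above 0. Of 18 germline probe sets, 16 had a mean response above 0 in promiscuous females, against 47.9% of all probe sets, with a median of 0.08. The list mean had responses of 0.08, 0.04, 0.18 and 0.00 in Prom1 to Prom4. The same list was also above 0 in monogamous females, as given below. The germline list mean ran from 9.79 to 9.99 over the P.M arrays and from 9.85 to 10.03 over the P.P arrays. The 6 gut enzyme probe sets were all under 0, with a median response of −0.09, and the eggshell list had 4 of 12 above 0, with list mean responses of 0.17, −0.51, −0.05 and −0.06. The part of these tissues in the response of the licensing genes was not tested.

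In monogamous females, averaged over the 2 batches, the responses of the same licensing genes were small and mostly under 0. Their mean responses to promiscuous-line males ran from −0.06 for Mcm3 to 0.01 for dup, with a median of −0.02. Of the means 2 of 9 were above 0, against 48.7% for all probe sets, and of the population values 17 of 36. Cdc6 had responses of 0.02, 0.00, 0.03 and −0.07 in the order Mono1, Mono2, Mono3 and Mono4, and Mcm5 had −0.01, 0.08, −0.06 and −0.08. Orc1 had 0.00, 0.05, 0.01 and −0.11. The lowest value of these 3 genes was in Mono4, and their highest was in Mono2 or, for Cdc6, in Mono3. With limma, 0 of 9 passed an adjusted p of 0.05, with 0% of all probe sets, and 0 of 9 had an unadjusted p under 0.05, against 8.46% of all. The smallest adjusted limma p of the 9 was 0.621, for Mcm3. The 95% interval reached from −0.08 to 0.07 for Cdc6 and from −0.13 to 0.01 for Mcm3. The germline list did have responses above 0 here, of 0.09, 0.04, 0.02 and 0.04, where the median was 0.04 and 16 of 18 probe sets were above 0.

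**Figure D2:**
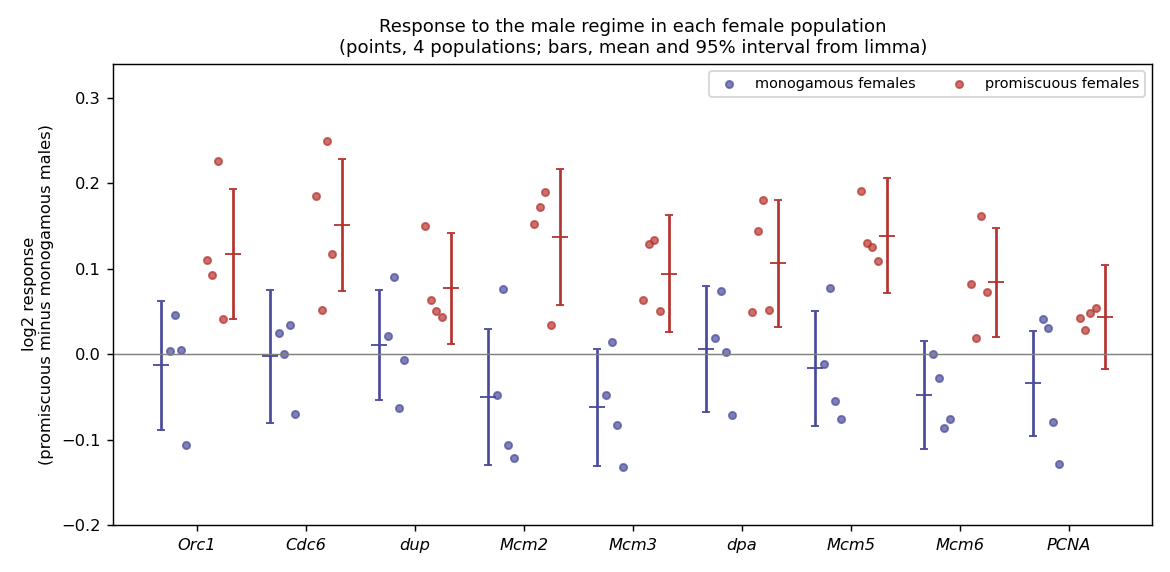
Response of each licensing gene to the male regime (vertical axis, log2, promiscuous-line minus monogamous-line males) in each of 4 monogamous (blue) and 4 promiscuous (red) female populations. Points are populations, and bars are the limma mean with its 95% interval. All red points lie above 0, while the blue points fall on both sides, and PCNA has the red interval that reaches under 0.

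The difference between the responses of promiscuous and monogamous females was tested itself. It was above 0 for all 9 genes (49.9% of all probe sets), from 0.07 for dup to 0.19 for Mcm2, with a median of 0.13, and none passed the adjusted test. Mcm2 differed by 0.19 (SE 0.05, 95% interval 0.07 to 0.30), Mcm3 by 0.16 (SE 0.04), Mcm5 by 0.16 (SE 0.04), Cdc6 by 0.15 (SE 0.05), Mcm6 by 0.13 (SE 0.04) and Orc1 by 0.13 (SE 0.05). Those 6 were the genes with an unadjusted limma p under 0.05, against 7.89% of all probe sets in either direction and 3.78% above 0. The intervals of dpa, dup and PCNA included 0. With limma, 0 of 9 passed an adjusted p of 0.05, against 0.00533% of all probe sets, and the smallest adjusted p of the 9 was 0.512, for Mcm2. For 4 of 9 genes, Mcm3, Mcm5, Mcm6 and Cdc6, every promiscuous response lay above every monogamous one, which held for 2.13% of all probe sets. This difference uses the same arrays as the 2 responses above and is no further evidence for either.

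The responses were not alike in the 2 batches. In promiscuous females, batch 1 gave mean responses of 0.07 to 0.23 with a median of 0.16 and 35 of 36 values above 0. Batch 2 gave 0.01 to 0.12 with a median of 0.06 and 24 of 36 values above 0. Orc1 had responses of 0.33, 0.32, 0.23 and 0.03 in Prom1 to Prom4 in batch 1, and of −0.11, −0.14, 0.22 and 0.05 in batch 2. Cdc6 had 0.32, 0.18, 0.28 and 0.12 in batch 1 and 0.05, −0.08, 0.22 and 0.12 in batch 2. Averaged over the 9 genes, the responses were 0.23, 0.22, 0.13 and 0.04 in batch 1 and 0.00, −0.04, 0.17 and 0.09 in batch 2, so Prom1 and Prom2 differed most between batches. Mcm2 had the largest mean in batch 2, 0.12, with 4 of 4 populations above 0, at 0.04, 0.11, 0.22 and 0.09.

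In monogamous females the median response was −0.08 in batch 1, with 10 of 36 values above 0, and 0.05 in batch 2, with 20 of 36. Of the 9 mean responses, 0 were above 0 in batch 1 and 8 in batch 2. The shares over all probe sets were not computed for single batches. Mono1 moved most. Its response averaged over the 9 genes was −0.22 in batch 1 and 0.22 in batch 2. The median difference between female regimes was therefore 0.26 in batch 1 alone and 0.01 in batch 2 alone, and in batch 2 it ran from −0.06 for dup to 0.11 for Mcm2. A test of batch 2 minus batch 1, chosen after these values were seen, gave a change in the response of promiscuous females of −0.22 (Orc1) to −0.01 (Mcm6), with a median of −0.11. The change in the difference between regimes ran from −0.35 (Orc1) to −0.07 (Mcm6), with a median of −0.25. For both, limma gave 0 of 9 genes past an adjusted p of 0.05 (0% of all probe sets) and 0 of 9 at an unadjusted p under 0.05 (5.93% and 7.69% of all). The smallest adjusted p were 0.817 and 0.641, and the intervals were wide, from −0.48 to 0.04 for Orc1 in the first test. The germline list mean response in promiscuous females was 0.12 in batch 1 and 0.04 in batch 2, and that of the eggshell list was 0.33 and −0.55. Their part in the change between batches was not tested.

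**Figure D3:**
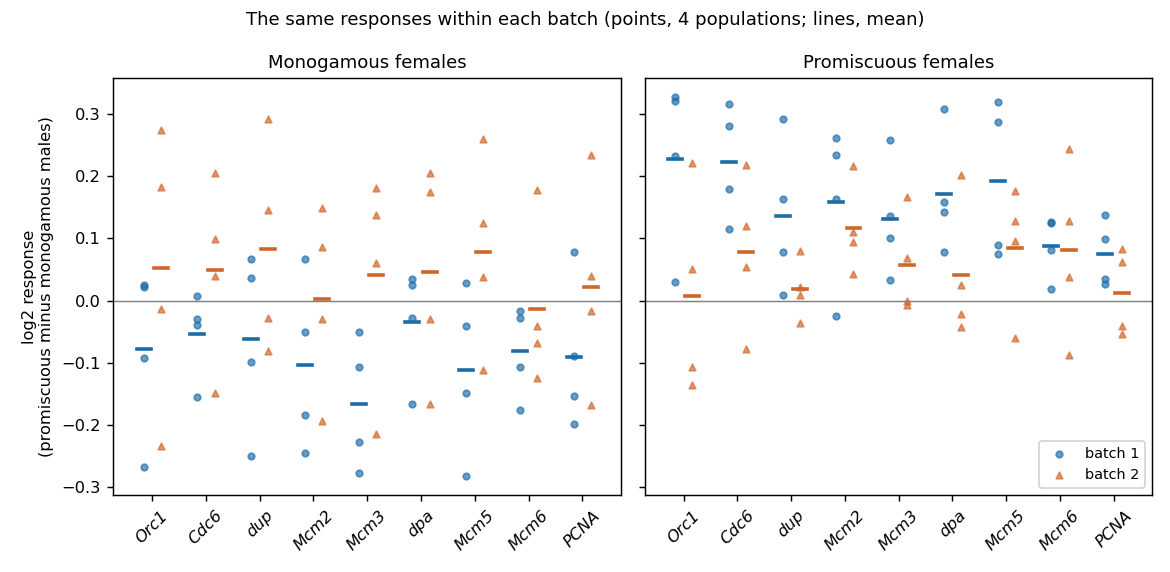
The same responses (vertical axis, log2) computed within batch 1 (circles) and within batch 2 (triangles), for monogamous (left) and promiscuous females (right). Points are 4 populations and lines are their means. In promiscuous females the means of batch 1 lie at 0.07 to 0.23 and those of batch 2 at 0.01 to 0.12, and in monogamous females the means of batch 1 lie under 0 for all 9 genes.

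Averaged over both female regimes, the response to the male regime was above 0 for all 9 genes (48.7% of all probe sets were above 0), from 0.00 for PCNA to 0.07 for Cdc6. With limma, 0 of 9 passed an adjusted p of 0.05 (0% of all), and Cdc6 at 0.07 (SE 0.03), Mcm5 at 0.06 (SE 0.02) and dpa at 0.06 (SE 0.02) had an unadjusted p under 0.05, as did 11% of all probe sets (6.2% when counting those above 0). The smallest adjusted p of the 9 was 0.37, for Cdc6. This average combines a response above 0 in promiscuous females with values around 0 in monogamous females and shares their arrays.

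In crosses within a population, promiscuous pairs (P.P) were set against monogamous pairs (M.M). The differences were small, from −0.01 for dup to 0.09 for Mcm5, with a median of 0.02 and 8 of 9 above 0 (51.1% of all probe sets). The 4 P.P crosses had Mcm5 levels of 10.32, 10.30, 10.22 and 10.19, and the 4 M.M crosses had 10.15, 10.10, 10.09 and 10.34. The M4M4 cross lay above all 4 P.P crosses, and the other three M.M crosses lay under them. With limma, 0 of 9 genes passed an adjusted p of 0.05 (0% of all probe sets), 0 of 9 had an unadjusted p under 0.05 (6.29% of all), and the smallest adjusted p was 0.86, for Mcm5. The 95% interval of Mcm5 was −0.05 to 0.22. In this contrast the regimes of both sexes change together.

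The batch of the array gave the differences in which licensing genes passed the test. All 9 had a mean difference of batch 2 minus batch 1 above 0, against 47.5% of all probe sets, and 5 of 9 passed an adjusted limma p of 0.05, all higher in batch 2. Of all probe sets, 20.2% passed, 10.7% higher and 9.49% lower, and 33.2% had an unadjusted p under 0.05, as did the same 5 genes. The helicase subunit dpa rose most. Its 16 within-cross differences ran from 0.01 to 0.43 with a median of 0.18, and 16 of 16 were above 0, which held for 1.2% of all probe sets. Its mean difference was 0.20 (SE 0.03, adjusted p = 2.77e-04), or 1.15-fold. Mcm6 rose by 0.11 (SE 0.03, adjusted p = 0.0042), with 13 of 16 crosses above 0, and Mcm2 by 0.10 (SE 0.03, adjusted p = 0.0123), with 12 of 16. For counts of crosses under 16 no share over all probe sets is given, so they are descriptions only.

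Orc1 rose by 0.15 (SE 0.05, adjusted p = 0.024) and had the widest range of differences, from −0.15 to 0.52, with 11 of 16 crosses above 0. Cdc6 rose by 0.11 (SE 0.04, adjusted p = 0.0364), with 12 of 16. These 2 calls depended on single populations. Orc1 missed the threshold without Mono4 (adjusted p = 0.0725), Prom1 (0.0643) or Prom3 (0.0545), and Cdc6 without Mono1 (0.0523), Mono3 (0.086), Mono4 (0.139), Prom1 (0.0843), Prom2 (0.0508) or Prom3 (0.05003). The others did not pass, with means of 0.07 for Mcm3, Mcm5 and dup and of 0.00 for PCNA, whose 16 differences ran from −0.26 to 0.18 with 9 above 0.

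The batch difference was uneven over the crosses. In M1P1, P1M1, M4M4, M4P4 and P2M2 (female population first, then male), all 9 genes were higher in batch 2, and the mean over the 9 genes reached 0.36 in M1P1, 0.29 in P1M1 and 0.27 in M4M4. In M1M1 1 of 9 genes was higher, in P4M4 2 of 9 and in P2P2 3 of 9, with means of −0.08, −0.03 and −0.01. By group, the median difference of the 9 genes was 0.05 in M.M, 0.16 in M.P, 0.13 in P.M and 0.04 in P.P, so that the groups with males of the other regime had the larger values. That contrast of groups is the same quantity as the batch dependence of the difference between female regimes, which did not pass its test. Over the same crosses the germline list mean changed by −0.00 (SD 0.09, n = 16), the elongation list by 0.05 (SD 0.10) and the muscle list by −0.12 (SD 0.23). That germline mean hid changes in both directions. Its probe sets gave −0.58 and 0.16 for bcd, and −0.33, 0.14 and 0.19 for osk. Those of piwi and bam rose by 0.15 each, and that of orb fell by 0.10. The part of tissue make-up in the batch difference was not tested.

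**Figure D4:**
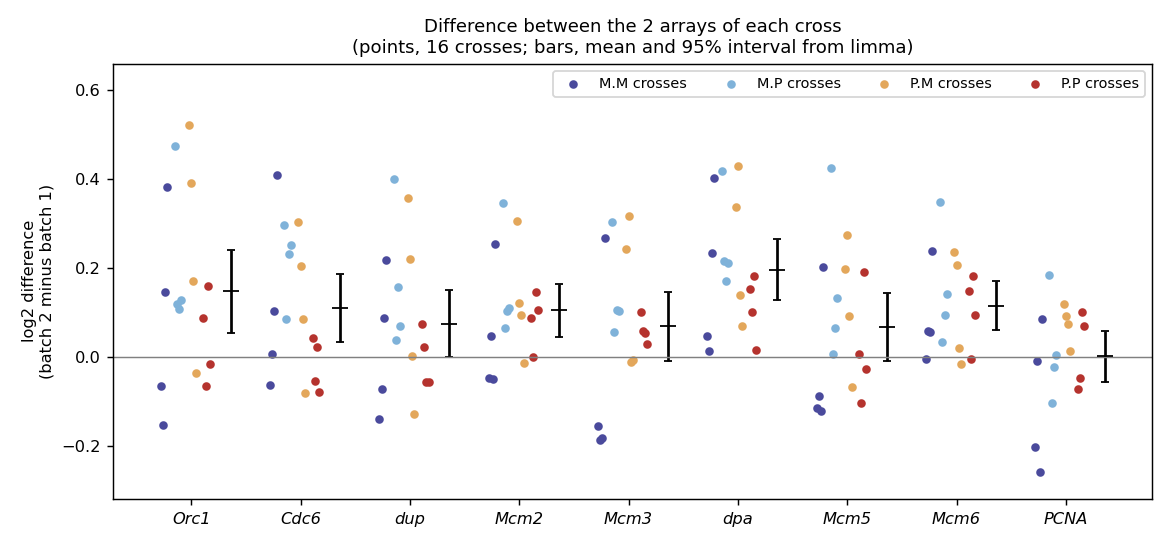
Difference between the 2 arrays of each cross (vertical axis, log2, batch 2 minus batch 1) for each licensing gene. Points are 16 crosses coloured by group, and bars are the limma mean with its 95% interval. All 16 points of dpa lie above 0, and the points of PCNA fall on both sides with a mean of 0.00.

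The populations of a regime were also compared with each other. Divergence was taken as the range of the 4 female population means, tested with limma's moderated F over 32 arrays. None of the 9 licensing genes passed an adjusted p of 0.05 among monogamous populations, against 13.5% of all probe sets, or among promiscuous populations, against 9.85%. Their median range was 0.12 among monogamous and 0.10 among promiscuous populations, where the median over all probe sets was 0.15 and 0.14. In the monogamous regime Mcm5 had levels of 10.14, 10.14, 10.06 and 10.31 in Mono1 to Mono4, a range of 0.24 (adjusted p = 0.0671), with Mono4 the highest. That range was 0.08 without Mono4. Cdc6 had 9.64, 9.81, 9.62 and 9.62, a range of 0.19 (adjusted p = 0.122), which was 0.02 without Mono2. These were the 2 of 9 genes with an unadjusted p under 0.05, against 25.9% of all probe sets.

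In the promiscuous regime Mcm2 had levels of 10.36, 10.17, 10.23 and 10.34 in Prom1 to Prom4, a range of 0.20 (adjusted p = 0.0521), and was the 1 of 9 with an unadjusted p under 0.05, against 21.5% of all. Orc1 had the narrowest range, 0.04. Mcm2 passed with arrays quantile-normalized again (adjusted p = 0.0309), with robust moderation (0.0439), when the dimmest 40% of probe sets were left out (0.0349) and without Mono1 (0.033), at ranges of 0.20 in each. Mcm5 passed among monogamous populations over 16 cross means (0.0106), without the dimmest probe sets (0.0474), without Mono1 (0.0177) and without Mono2 (0.0487), and Cdc6 over cross means (0.0456) and in batch 1 alone (0.0488). In the other alternative runs these genes did not pass. There the adjusted limma p reached 0.562 for Mcm2, 0.688 for Mcm5 and 0.976 for Cdc6 in the same comparisons.

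The 9 genes varied together. Over the 16 cross means all 36 pairs had a Pearson correlation above 0, with a median of 0.55, from 0.22 for Mcm2 and PCNA to 0.81 for dpa and Orc1. Over the 16 differences between batches the median was 0.81 and the highest 0.94, again dpa and Orc1. Over 32 arrays, less the mean of their group and batch, the median was 0.61, with 0.86 for dpa and Orc1. The genes dpa and Orc1 lie on the same chromosome arm with 6 genes between them in the Release 6 gene order. The other neighbouring members of an arm were 178 to 1364 genes apart. The part of gene order in the correlations was not tested. These correlations are descriptions. The genes of an array share its RNA sample, its hybridisation and its normalization.

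The mean of the 9 genes correlated at 0.86 with the mean of 22 elongation probe sets over the 16 crosses and at 0.92 over the batch differences. The correlations with the germline list were 0.49 and 0.63, with the eggshell list 0.36 and 0.18, with the gut enzymes −0.49 and 0.16 and with the muscle list −0.38 and −0.28. The 5 single-gene probe sets outside the 9 whose pattern over the 16 cross means was most like their mean were those of mei-38 (r = 0.95), CG5664 (0.89), thr (0.89), tant (0.88) and dgrn (0.88). In promiscuous females mei-38, which encodes a microtubule-associated protein, had responses of 0.13, 0.13, 0.28 and 0.08, and thr, whose protein binds separase, had 0.22, 0.13, 0.27 and 0.10. These probe sets were picked for their likeness, and their responses are no separate finding.

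The other genes of the replication pathway were described by 4 lists of 52 genes, of which 43 had a single-gene probe set, 44 probe sets in all. In promiscuous females, 42 of 44 had a response to promiscuous-line males above 0, or 95.5% against 47.9% of all probe sets, with a median of 0.06 against 0.00. An unadjusted limma p under 0.05 was reached by 10, all above 0, or 22.7% against 10.2% of all probe sets in either direction and 5.79% above 0, and 0 passed an adjusted p of 0.05. The elongation list, which holds the DNA polymerases, primases, RPA and clamp loader subunits, had 22 of 22 above 0, from 0.02 to 0.13. Its list mean response was 0.09 in batch 1 and 0.03 in batch 2. In batch 2 the values were −0.01, −0.04, 0.10 and 0.08 in Prom1 to Prom4. This list varies with the 9 licensing genes over the same arrays, so its direction is no separate observation. All 3 probe sets of the origin recognition list, Orc2, Orc4 and Orc5, and all 8 of the S phase control list were also above 0, with medians of 0.07 and 0.06, and 9 of 11 for helicase activation, with a median of 0.05. RnrL, the large subunit of ribonucleotide reductase, had responses of 0.18, 0.11, 0.13 and 0.04 (mean 0.11, adjusted p = 0.339). The repressor Rbf2 had 0.13, 0.07, 0.15 and 0.11 (mean 0.12, adjusted p = 0.339). Dref, the factor that binds the DNA replication-related element, and Mcm10, which acts when the helicase is activated, had means of 0.11 each with adjusted p of 0.383 and 0.389.

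In monogamous females the response of the pathway lists had no common direction, with 21 of 44 above 0, against 48.7% of all probe sets, and a median of −0.01, and 16 of the 22 elongation probe sets under 0. The lowest was Cdk2, the partner of cyclin E, with −0.13, −0.02, −0.10 and −0.16 in the monogamous populations in order (mean −0.10, limma adjusted p = 0.409), against 0.07, 0.02, 0.08 and 0.02 in the promiscuous ones. The difference between female regimes was above 0 for 41 of 44, against 49.9% of all probe sets, with a median of 0.08, and 0 passed an adjusted p of 0.05. It was 0.15 for Cdk2 (limma adjusted p = 0.512), 0.16 for Rbf2 (0.531), 0.15 for the clamp loader gene CG8142 (0.536) and 0.17 for the p105 subunit of chromatin assembly factor 1 (0.582). For the elongation list mean the same difference was 0.16 in batch 1 alone and 0.01 in batch 2 alone. Between female regimes, 19 of 44 were above 0, against 52.9% of all probe sets, and 0 passed. CycE, the cyclin that drives S phase entry, had levels of 10.77, 10.90, 10.88 and 10.81 in monogamous populations and 10.56, 10.62, 10.69 and 10.77 in promiscuous ones, a difference of −0.18 (limma adjusted p = 0.579), and the regimes overlapped only at Mono1 and Prom4. The smallest adjusted p of any probe set in that comparison was 0.554. In crosses within a population, 28 of 44 were above 0, against 51.1% of all probe sets, and 0 passed.

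**Figure D5:**
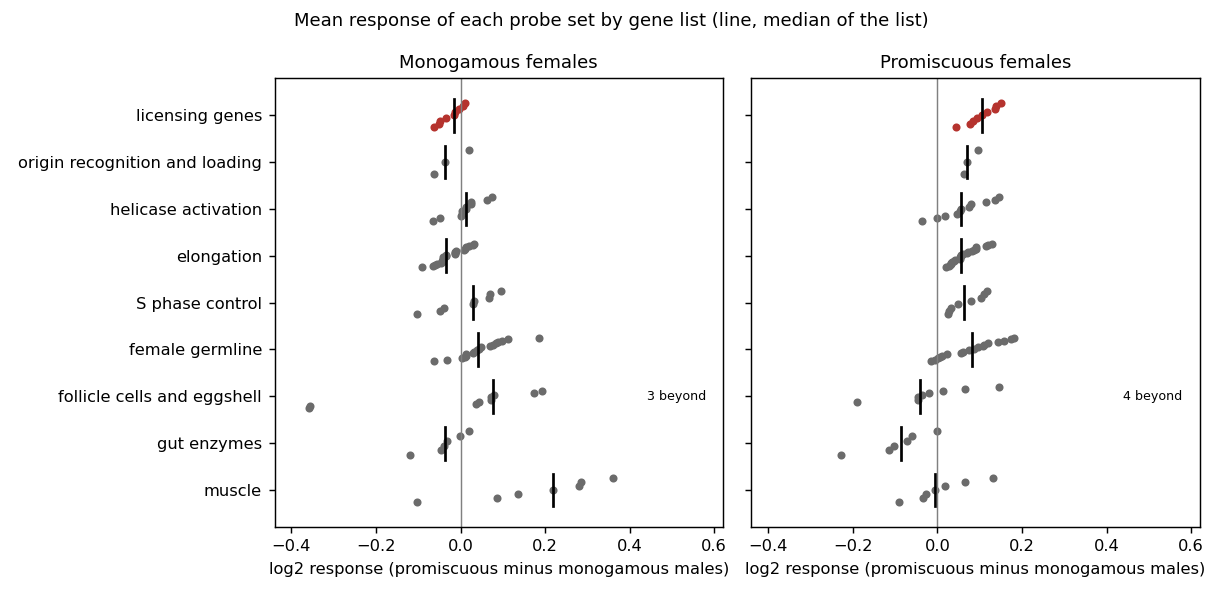
Mean response to the male regime (horizontal axis, log2) of each probe set of the licensing genes (red) and of pathway and tissue marker lists (grey), in monogamous (left) and promiscuous females (right). Each point is a probe set, vertical lines are list medians, and eggshell probe sets beyond the axis are counted in the panel. In promiscuous females the licensing genes have a median of 0.11 and all elongation points lie above 0, while in monogamous females the muscle list lies highest with a median of 0.22.

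For the batch, 14 of 44 pathway probe sets passed as higher in batch 2, or 31.8% against 10.7% of all probe sets, and 3 as lower, or 6.82% against 9.49%. The batch difference was above 0 for 35 of 44, or 79.5% against 47.5% of all probe sets, with a median of 0.07. Those that rose included ago at 0.15 (SE 0.02, limma adjusted p = 5.40e-05), whose protein targets cyclin E for degradation, the clamp loader subunit RfC3 at 0.17 (SE 0.03), the RPA subunit RPA3 at 0.18 (SE 0.03) and the polymerase subunit PolE1 at 0.18 (SE 0.03). Dref rose by 0.18 with 16 of 16 crosses above 0, and the origin complex subunits Orc2 and Orc5 rose by 0.16 and 0.12. The GINS subunits Psf1, Psf2 and Psf3, CDC45L, RPA2, RfC38 and DNAlig1 rose by 0.10 to 0.20. Dp, the partner of E2F, the gene of the p180 subunit of chromatin assembly factor 1 and the primase subunit Prim1 fell by 0.11, 0.13 and 0.08.

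Among monogamous populations 6 of 44 pathway probe sets passed the test of divergence, or 13.6%, which was near the 13.5% of all probe sets and is no result about the pathway. Their ranges were 0.27 to 0.81. The widest was Psf1, a subunit of the GINS complex of the active helicase, with levels of 8.02, 7.54, 8.17 and 7.36 in Mono1 to Mono4 (limma adjusted p = 2.38e-07), where Mono2 and Mono4 were low. Orc4 had 8.50, 8.66, 8.27 and 8.69, a range of 0.43, with Mono3 the lowest. A probe set of chif, the regulatory subunit of the Cdc7 kinase, had 7.75, 8.09, 7.99 and 7.94 among monogamous and 7.86, 8.06, 7.64 and 7.93 among promiscuous populations and passed in both (adjusted p = 3.95e-05 in the latter). Prim2, RfC3 and PolE2 also passed among monogamous populations, and chif was the 1 of 44, or 2.27% against 9.85% of all probe sets, that passed among promiscuous ones. The second chif probe set did not pass in either regime, so the probe sets of that gene disagree.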

How the data were processed

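RNA of 32 samples was hybridised to Affymetrix arrays of 1 colour, identified by the array names that the labels give. The deposited values were log2 levels. The authors computed them with RMA and affy, versions not given, per the submitters' processing notes. RMA forces the arrays onto a shared distribution, so a shift of most genes together is lost. No further normalization was applied and 0 columns of values were left unused. Of 18952 probe sets, 183 controls were left out and 18769 were tested. The platform annotation, which is old, gave 1 gene to 13647, several to 402 and none to 4720, and no gene was named from the last 2 kinds. A RefSeq table (Release 6 plus ISO1 MT) matched 13544 and was used for names and gene order only.

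The population was the unit of replication for the comparisons of regimes. The batch was fitted on 16 within-cross differences, where crosses that share a population were treated as independent. Population means, responses or cross means were fitted with limma 3.58.1 in R 4.3.3 (lmFit and eBayes with a trend on the mean log2 level, two-sided), with Benjamini-Hochberg adjustment over all tested probe sets and a threshold of 0.05. The 8 responses were fitted together, so both female regimes share 1 estimate of the spread. Divergence was fitted on arrays with batch and male regime as terms. The fits were first run on simulated data as a check of the code. The planted changes were larger than those of the licensing genes and the simulated populations did not vary. These runs therefore do not show how often small changes are found or falsely called. Alternatives were normalization, the filter on dim probe sets, the moderation, single batches, leaving out each population, the population number as a block and arrays as samples.

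The 9 genes and the pathway and marker lists were chosen with earlier results of these data known. All 9 genes are named. Of the pathway lists, the text draws on the 4 probe sets with the smallest p in a comparison and those that passed the adjusted test, and on the 5 probe sets most correlated with the mean of the 9 genes. Same-numbered populations were checked for pairing by correlating their deviations from the regime mean over all probe sets. The correlations were 0.13, 0.07, 0.19 and 0.02 for levels and 0.17, 0.03, −0.04 and 0.01 for responses. The main fits therefore did not pair the populations by number. Females of the same number still shared their 2 male populations, so treating their responses as independent is an assumption. The number was used as a block in an alternative run only.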

Additional observations from a re-analysis of the deposited data

Results flagged for a closer look

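Dixon's test for a sample far from the others was run on 72 groups of arrays, populations or responses of the licensing genes. It singled out 2, which is under the share of about 1 in 20 that chance gives, so they are listed as descriptions only. The Mcm2 level of the batch 2 array of the M4M4 cross was 10.55, while the other 7 M.M arrays lay between 10.23 and 10.32. The mean Cdc6 level of Mono2 was 9.81, while the other three monogamous populations lay between 9.62 and 9.64.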

How the results depend on the processing

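No licensing gene passed or reversed in the comparisons of female regime, male regime or crosses within a population under any alternative run. The mean responses in promiscuous females kept their direction in all 153 recomputed values. Most of these runs could not have changed it. Each gene was above 0 in every promiscuous population, and the filter, moderation, block and array settings leave these means as they are. Only other normalizations and single batches could have changed the direction. Signs changed in 22 of 153 values for the female regime and 15 of 153 in monogamous females. They also changed in 18 of 153 for crosses within a population and 4 of 153 for the difference between female regimes, none of them called. The median of the 9 genes moved with the batch used. It was 0.16 in batch 1 alone and 0.057 in batch 2 alone in promiscuous females, −0.082 and 0.046 in monogamous females, and 0.26 and 0.0069 for their difference, and the cause was not tested. With populations left out in turn, 3 to 5 genes passed for the batch, and Cdc6 also missed the threshold with quantile normalization (0.09, limma adjusted p = 0.0835) and over 8 population means (adjusted p = 0.0616). For divergence among monogamous populations, 2 genes passed over 16 cross means, 1 in batch 1 alone, 1 without the dimmest 40% of probe sets and 0 to 1 with populations left out. Their median range was 0.16 in batch 1 alone and 0.067 to 0.12 with populations left out. Among promiscuous populations 1 gene passed with quantile normalization, 1 with robust moderation, 1 without the dimmest probe sets and 0 to 1 with populations left out. The median range was 0.14 in batch 1 alone, 0.17 in batch 2 alone and 0.067 to 0.10 with populations left out. Of the 5 probe sets most like the 9 genes, 0 remained in the top 5 over 8 population means.

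With the population number as a block, 0 licensing genes passed in any comparison, and over all probe sets 13 passed for the mean male response (0 without the block), 2 in promiscuous females (1 without), 0 for the difference between female regimes (1 without) and 1 for crosses within a population (0 without). With arrays as samples and the population as a random block, 142 of all probe sets passed for the female regime and 32 for crosses within a population, and 0 licensing genes. The number of populations, 4 per regime, limits the precision, as the 95% intervals in the results show. Promoters and protein sequences of the 9 genes were planned and not run, because the reference tables used here hold no sequences.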
